A study of Mus musculus with 2 samples.

Results

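In the normal anorectal sample, 432 cells carried the deposited cluster name Anal Canal (46.0% of the cells with a cluster name there), and these cells are described here. They were taken by that name, and their levels come from the deposited counts of unique molecular identifiers (UMIs), which count RNA molecules. The 507 other named cells of the sample were 257 Basal and 187 Suprabasal cells, which lie in the anorectal transition zone (TZ), and 63 Rectum cells. The normal sample held 2564 barcodes in all, and 5086 cells were named over the normal and the wounded sample together.

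The anal canal is lined by a stratified squamous epithelium, in which cells attached to a basement membrane divide and their progeny move upwards and differentiate. Differentiating cells of a keratinising epithelium, such as the epidermis, change to the keratin pair Krt1 and Krt10 and build a cornified envelope, whereas those of a wet mucosa, such as the mouth or oesophagus, change to Krt4 and Krt13. At the TZ this squamous epithelium meets the columnar, mucus-secreting epithelium of the rectum.

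Both samples came from C57/BL6J mice that carried K17CreERT2, a tamoxifen-inducible Cre recombinase driven by the keratin 17 promoter, and R26RGFP, a ZsGreen1 reporter at the Rosa26 locus that is switched on by Cre. The mice of both samples had been injected with tamoxifen on 2 days, and females and males were used. The anorectal regions of at least 5 mice were pooled, and live EpCam-positive cells without CD45, CD11b, CD31 and PDGFRa were sorted. The normal sample was not wounded, and the wounded sample was prepared 1 week after an EDTA wound in mice aged 2 to 4 months.

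Each condition was sequenced as 1 library, so no value below has a replicate and no test was made. A level is the summed UMI count of a gene in a cluster per 1000000 UMIs of that cluster (CPM). Brackets give 95% intervals, exact Poisson for a CPM, binomial for a log2 ratio of 2 CPM values and Clopper-Pearson for a share of cells, which cover counting error only, not variation between mice. The names came from clusters built on these same cells, so every difference between clusters of the normal sample is a description. The reads are 3' tags, so CPM values may be set side by side without a correction for gene length.

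The anal canal cells held 4381078 UMIs, with a median of 8438 UMIs and 2314 detected genes per cell, the lowest medians of the 4 clusters (up to 11543 UMIs and 2716 genes in the others). Their median share of mitochondrial UMIs was 4.28%, against 4.77% to 9.26% in the others. For shares of cells with a UMI, every cell was first reduced to 2000 randomly drawn UMIs (thinned). This kept 397 anal canal cells and left out 35 of them and 9 others, which were shallower. No anal canal barcode occurred among the wounded barcodes, and 1 of the 2564 normal barcodes did. In the wounded sample no cluster was named Anal Canal, and the cells named Basal there carried the genes that led the normal anal canal cells, as given further below.

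The 4 markers of the anal canal cells were present, each in a part of the cells. Krt10 (ENSMUSG00000019761, GRCm38 chromosome 11, 99385254 to 99389364, minus strand) reached 2228 CPM, against 48.4 CPM in Basal, 162 CPM in Suprabasal and 35.5 CPM in Rectum cells. Krt1 (ENSMUSG00000046834, chromosome 15, 101845426 to 101850794, minus strand), its partner in the epidermis, was at 2286, 17.4, 448 and 8.52 CPM in the same order. Both were thus highest in the anal canal cells, with the Suprabasal cells next.

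Krt4 (ENSMUSG00000059668, chromosome 15, 101918535 to 101924735, minus strand), the type II keratin of differentiating mucosa, reached 864 CPM (837 to 892), and 5.26 CPM or less in the 3 other clusters. Its log2 ratio over the other named cells was 8.02 (7.37 to 8.75), against 4.59 (4.46 to 4.72) for Krt10 and 3.60 (3.51 to 3.69) for Krt1. Gpc3 (ENSMUSG00000055653, chromosome X, 52272426 to 52613950, minus strand) encodes a glypican, a heparan sulfate proteoglycan anchored to the cell surface. It reached 68.9 CPM (61.4 to 77.2), against 19.96 CPM in Basal and 3.07 CPM in Suprabasal cells, and the Rectum cells had 0 UMIs, where 3 UMIs would be 4.26 CPM. Its log2 ratio was 2.69 (2.28 to 3.11), the smallest of the 4.

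After thinning, 45.3% of the anal canal cells (40.4 to 50.4) had a UMI of Krt1. Krt4 was present in 40.8% (35.9 to 45.8), Krt10 in 31.7% (27.2 to 36.6) and Gpc3 in 10.8% (7.95 to 14.3). In the Rectum cells, a columnar epithelium that should lack these keratins, Krt10 was found in 4 of 60 thinned cells (6.67%, 1.85 to 16.2) and Krt4 in 3 of 60 (5%, 1.04 to 13.9). Krt1 was found in 0 of 60, which allows up to 5% when 3 cells are taken as the limit that a count of 0 allows, as for each count of 0 here. In the Basal cells, Krt10 was found in 8.63% and Krt4 in 0 of 255 cells, which allows up to 1.18%. Before thinning the shares of the anal canal cells were 61.6% for Krt1, 56.3% for Krt4, 55.6% for Krt10 and 36.1% for Gpc3.

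**Figure D1:**
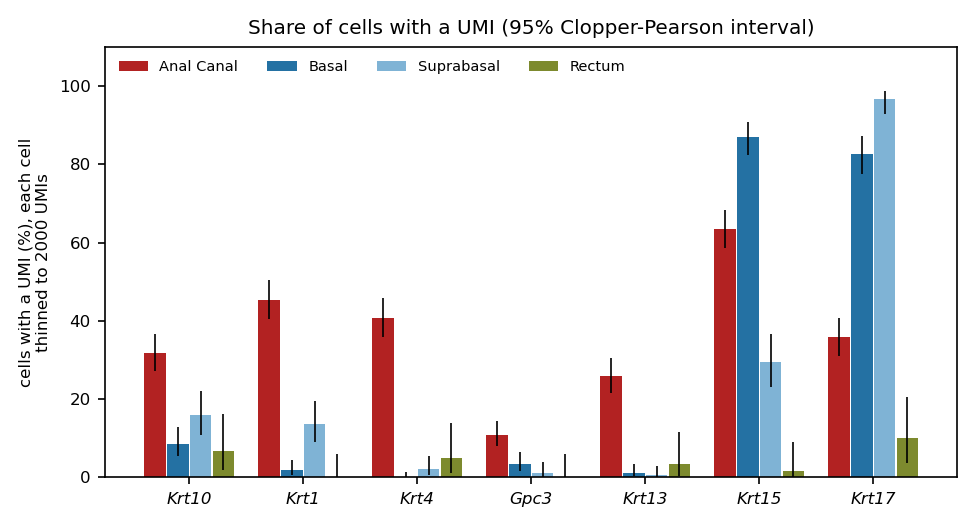
The bars give the share of cells (%) with at least 1 UMI of each keratin gene or Gpc3 after thinning to 2000 UMIs, for the 4 named clusters of the normal sample, with 95% Clopper-Pearson intervals. The bars of Krt10, Krt1, Krt4, Krt13 and Gpc3 are highest in the anal canal cells, at 10.8% to 45.3%, while Krt17 is highest in Suprabasal cells at 96.7% and Krt15 in Basal cells at 87.1%.

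The sequences just upstream of 3 genes that were spread unevenly over the anal canal cells are shown. They are the 120 bases before the transcription start in the RefSeq promoter table (GRCm38.p6), with motif matches in capitals. The TATA box, spelled TATAAA, was searched on the strand shown. The AP-1 motif, spelled TGANTCA, and the CACCC box, spelled CACCC, were searched on both strands. Krt1, Krt4 and Psca had no entry with the start of their GENCODE gene. Krt10 is read from chr11:99389365-99389484 on the minus strand, Krt13 from chr11:100121567-100121686 on the minus strand and Ppbp from chr5:90768398-90768517 on the plus strand, each 5′ to 3′.
Krt10: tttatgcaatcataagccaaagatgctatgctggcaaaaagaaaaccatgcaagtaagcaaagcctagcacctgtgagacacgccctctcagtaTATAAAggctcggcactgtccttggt
Krt13: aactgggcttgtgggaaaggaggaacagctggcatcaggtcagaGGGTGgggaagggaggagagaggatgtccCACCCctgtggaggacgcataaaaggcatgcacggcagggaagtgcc
Ppbp: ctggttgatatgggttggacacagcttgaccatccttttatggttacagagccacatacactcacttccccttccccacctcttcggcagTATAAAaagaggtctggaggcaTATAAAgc

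A TATA box began 26 bases before the start of Krt10 and 30 and 8 bases before that of Ppbp. The exact string TATAAA was not among the 120 bases before Krt13, and variant spellings were not searched. A CACCC box began there 76 and 47 bases upstream, 1 on each strand. Of 32851 promoters in the table, 4.19% held a TATA box in this window, 3.41% an AP-1 motif and 31.7% a CACCC box. None of the 3 windows held an AP-1 motif. A match is a string of letters and does not show that a factor binds there.

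Among 11406 genes with at least 20 UMIs over the named normal cells, 803 (7.04%) were at least 2-fold higher and 1422 (12.5%) at least 2-fold lower in the anal canal cells than in the 507 other named cells. The median log2 ratio over the genes with UMIs in both groups was 0.05. Without the 5 anal canal cells that held the most UMIs of each gene, 491 genes were at least 2-fold higher, so for part of the 803 genes at most 5 of the 432 cells decided the call.

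The 20 genes that stood furthest above each other cluster, among those with at least 100 UMIs in the anal canal cells, included secreted, surface and cornified products. The chemokine Ppbp (ENSMUSG00000029372) led them with 477 CPM against 2.19 CPM in the next cluster, Suprabasal, a log2 ratio of 7.77 (6.54 to 9.39). Krt4 and Krt13 followed with 7.36 (6.55 to 8.31) and 6.84 (5.61 to 8.46) over the next cluster. Psca, a surface protein of the Ly6 family, was at 680 CPM against 5.70 CPM in the next cluster, and Slurp1, a secreted Ly6 protein, at 87.6 against 0.876 CPM.

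Proteases, their inhibitors and antimicrobial proteins formed a further set of these genes. Tmprss11a and Tmprss11d, transmembrane serine proteases, were at 202 and 117 CPM, and the inhibitors Serpinb2 and Serpinb12 at 147 and 34.7 CPM. Ltf (lactoferrin, an iron-binding antimicrobial protein) was at 181 CPM and S100a9 (a subunit of calprotectin) at 38.6 CPM. In each of the 3 other clusters these 6 genes were at 2.63 CPM or less. The cornified envelope genes Sprr1b and Cnfn were at 152 and 194 CPM, and at most at 1.31 and 4.38 CPM elsewhere.

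The remaining leading genes were Calcb (420 CPM), Mt4 (520 CPM), Igfbp7 (329 CPM), Ccer2 (70.3 CPM), Upk3bl (50.2 CPM), Krt12 (30.8 CPM) and Xlr4b (30.1 CPM). Calcb encodes the beta form of calcitonin gene-related peptide, Mt4 a metallothionein of stratified epithelia and Krt12 a keratin known from the cornea. Xlr4b belongs to a family of near-identical copies between which reads can be split, so its level is uncertain. Several next clusters held only 1 to 3 UMIs, and the ratios of those genes have wide intervals, such as 7.33 (4.84 to 12.6) for Ccer2 and 6.99 (4.51 to 12.3) for Ltf.

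**Figure D2:**
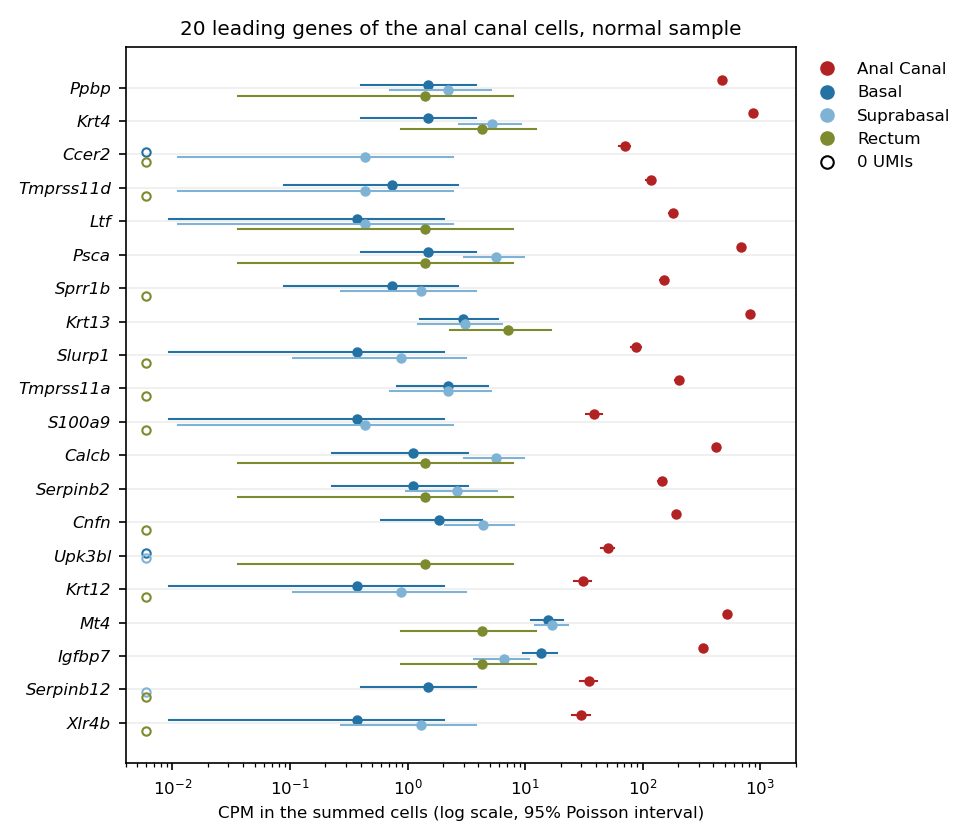
The points give the CPM (log scale) of the 20 leading genes in the summed cells of the 4 named clusters of the normal sample, with 95% Poisson intervals and open circles for 0 UMIs. The anal canal points lie between 30.1 and 864 CPM, and all points of the other clusters lie at 17.1 CPM or lower.

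How many cells carried these genes differed widely. The median gene with at least 100 UMIs had 49.7% of its UMIs in the 43 cells (10%) that held the most of it, and these genes ranged from 46.1% for Igfbp7 to 100% for Ppbp, Psca, Ltf, Cnfn, Ccer2, S100a9 and Serpinb12. After thinning, Igfbp7 was found in 36.5% of the anal canal cells, Calcb in 27.5%, Tmprss11a in 22.9% and Serpinb2 in 16.6%. Ppbp was found in 5.54%, Psca in 4.79% and Ltf in 3.78% of these cells. Most anal canal cells thus had no UMI of these genes at this depth.

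Leaving out the 5 cells with the most UMIs of a gene lowered the narrow genes most. The log2 ratio over the next cluster was then 4.73 for Ppbp, 3.34 for Psca, 3.52 for Ltf and 2.27 for Cnfn, against 4.51 for Igfbp7 and 6.35 for Tmprss11a. Ccer2 rested on 1 cell, which held 306 of its 308 UMIs and 10681 UMIs in all, with 153 UMIs of Krt14. Without that cell, an alternative chosen after the data were seen, Ccer2 was at 0.458 CPM.

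The Psca, Ppbp, Ltf, Cnfn and Arg1 UMIs lay in the same few cells. The 12 anal canal cells with at least 10 UMIs of Psca (2.78% of the cells and 3.44% of the UMIs) held 98.4% of the Psca UMIs, 94.7% of the Ppbp, 92.8% of the Ltf, 92.6% of the Cnfn and 98.3% of the Arg1 UMIs. This group of cells was drawn after the values were seen and rests on few cells.

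Keratins also set these 12 cells apart in level. Krt19 and Krt7, keratins of simple and ductal epithelia, were at 4062 and 3026 CPM in them and at 87.5 and 303 CPM in the other anal canal cells, and Krt23 had all of its 41 UMIs there. Krt13 was at 8044 against 554 CPM, and Krt6b, a keratin induced in wounds and present in some mucosae, at 4699 against 112 CPM. Krt14, the type I keratin of basal layers, was close between them at 13486 and 11823 CPM, whereas its partner Krt5 was lower, at 1785 against 3902 CPM. A cell with 721 UMIs of Psca and 7666 UMIs in all had 0 UMIs of both Krt14 and Krt5. Krt1 (53.1 against 2365 CPM) and Mt4 (6.64 against 538 CPM) were lower in the 12 cells. Their median of 10750 UMIs was above the 8438 UMIs of the whole cluster.

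Among 2340 genes with a mean of at least 0.1 UMI per thinned cell, the median variance over mean was 1.08, near the 1 of random counting. The 10 genes with the highest values were Igkc (557), Igha (235), Psca (157), Jchain (103), Ppbp (103), Ccer2 (70.0), Cnfn (49.9), Arg1 (42.7), Ltf (40.8) and Krt10 (29.6). Igkc, Igha and Jchain encode immunoglobulin chains and the joining chain, which plasma cells make. A single barcode held 677 of the 716 Igkc, 289 of the 316 Igha and 133 of the 140 Jchain UMIs. It had 2376 UMIs, with 2 of Krt14 and 0 of Krt5 and of the leukocyte gene Ptprc. Without it, again an alternative chosen after the data were seen, Igkc was at 8.91 in place of 163 CPM, near the 8.87 CPM of the Basal cells.

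To describe the differentiation states, each thinned cell was placed in 1 of 4 classes by whether it had at least 3 UMIs of Krt1 plus Krt10 and at least 3 UMIs of Krt4 plus Krt13. Of 397 cells, 225 (56.7%, 51.6 to 61.6) reached neither, 82 (20.7%) reached the Krt1 and Krt10 cut alone, 57 (14.4%) the Krt4 and Krt13 cut alone, and 33 (8.31%, 5.79 to 11.5) reached both. The classes are called by the pair whose cut was passed. The classes are ranges of a continuous level: 48 cells lay at 2 or 3 UMIs of Krt1 plus Krt10 and 45 cells at 2 or 3 UMIs of Krt4 plus Krt13. Median depth before thinning was 8141, 10932, 8535 and 12601 UMIs in the same order. Whether depth had a part in the class beyond the thinning was not tested.

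None of the 255 thinned Basal or 60 Rectum cells reached either cut. Among 183 Suprabasal cells, 18 (9.84%) reached the Krt1 and Krt10 cut and 0 the Krt4 and Krt13 cut, so that a share up to 1.64% is allowed by the count. The cuts are on the sum of a pair, so a cell can pass on 1 member, and 18 of the 33 anal canal cells past both cuts had a thinned UMI of each of the 4 keratins.

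**Figure D3:**
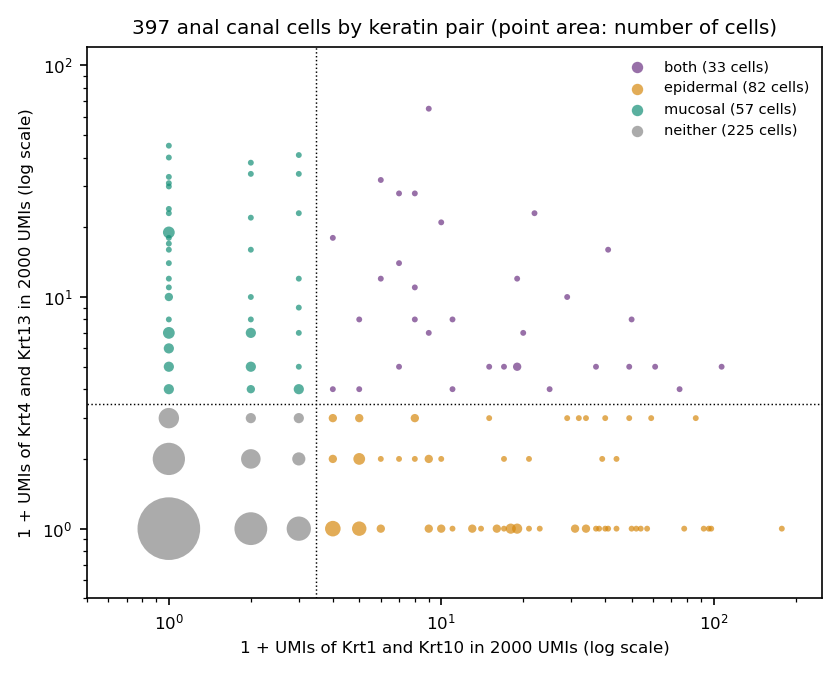
Each point places thinned anal canal cells by 1 plus their UMIs of Krt1 and Krt10 (horizontal) and of Krt4 and Krt13 (vertical), on log scales, with the point area giving the number of cells and dotted lines the cuts of the 4 classes. Most cells lie near the origin, and the cells beyond a cut spread along both axes, up to 177 UMIs for Krt1 plus Krt10 and 64 UMIs for Krt4 plus Krt13.

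Across the 397 thinned cells, 8 genes had natural-log levels that correlated most with Krt10. They were Krt1 (Pearson r = 0.77), Fabp5 (0.71), Calm4 (0.62), Dmkn (0.55), Mt4 (0.51), Ly6d (0.51), Krtdap (0.50) and Gltp (0.43), out of 1204 genes with a mean of at least 0.2 UMI. Fabp5 binds fatty acids, Gltp moves glycolipids, and Dmkn and Krtdap are secreted by differentiating keratinocytes. For Krt4 they were Krt13 (0.72), Krt6a (0.60), Sprr1a (0.57), Gsto1 (0.55), Krt6b (0.55), Spink5 (0.51), Ecm1 (0.46) and Anxa1 (0.46). The cells share 1 library, and the values describe it.

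For Krt15, a keratin of basal cells, genes among the most alike were Wfdc2 (0.44), S100a6 (0.44), Igfbp7 (0.36), Gclm (0.31), Gsta4 (0.30), Tmem176b (0.30) and Ifitm3 (0.30). Krt15 correlated negatively with Krt10 (-0.43) and Krt1 (-0.44), and weakly with Krt4 (0.10) and Krt13 (0.13). In the same cells Krt10 and Krt4 had an r of 0.13. A UMI of Krt15 was found in 40.5% of the thinned cells with a UMI of Krt10 and in 74.2% of those without, and in 69.8% of the cells with Krt4 and 59.1% of those without.

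The classes differed in genes other than the keratins that formed them. Of the genes given below, Fabp5, Mt4, Krt6a, Krt6b, Sprr1a and Spink5 were chosen by their correlation with Krt10 or Krt4 in these same cells. Their levels by class follow in part from that choice. In the cells with neither pair, Krt15 was at 3340 CPM (488 CPM with Krt1 and Krt10 alone, 3848 CPM with Krt4 and Krt13 alone and 754 CPM with both), so it was low wherever Krt1 and Krt10 were high. The 11 basement membrane adhesion genes summed to 1589 CPM in the cells with neither pair and to 720, 917 and 589 CPM in the other classes. Among them Col17a1, the collagen of hemidesmosomes, was at 390, 196, 131 and 93.9 CPM, and Itgb4, its integrin partner, at 140, 33.7, 64.7 and 47.0 CPM.

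The Wnt ligand gene Wnt10a was at 177 CPM in the cells with neither pair and at 11.7 to 47.2 CPM in the others, and Igfbp7 at 502 CPM against 87.6 to 257 CPM. Cell cycle genes summed to 1435 CPM there and to 742 to 1022 CPM elsewhere. Among them Mcm2, a helicase subunit of DNA replication, was at 64.8 CPM against 28.9, 16.6 and 2.35 CPM. Not every member was highest there. Mki67 was at 73.7 CPM with neither pair and 74.6 CPM with Krt4 and Krt13 alone. Ube2c was at 127 CPM with neither pair and 155 CPM with both. A UMI of Mki67 was found in 40 of the 397 thinned cells, and 8 of these 40 also had a UMI of Krt10.

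The cells with Krt1 and Krt10 alone had the highest summed levels of Fabp5, Mt4 and both calprotectin genes. Fabp5 was at 8446 CPM in them and 7224 CPM in the cells past both cuts, against 596 CPM with neither and 1642 CPM with Krt4 and Krt13 alone. Mt4 was at 1519, 1221, 72.3 and 4.98 CPM in the same order. S100a8 and S100a9 were at 273 and 128 CPM in the cells with Krt1 and Krt10 alone, and in the other classes S100a8 was at 14.1 CPM or less and S100a9 at up to 49.3 CPM, in the cells with both. A UMI of S100a8 was found in 7 and of S100a9 in 6 of these 82 cells after thinning, so few cells carried both sums. Acer1 and Dsc1, an alkaline ceramidase and a desmosomal cadherin of the upper epidermis, had 0 UMIs in the cells with Krt4 and Krt13 alone and 31.8 and 19.3 CPM with Krt1 and Krt10 alone.

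The cells with Krt4 and Krt13 alone had the highest summed levels of Krt6a, Krt6b and Krt16. Krt6a was at 6218 CPM in them, against 359 CPM with Krt1 and Krt10 alone and 933 CPM with neither pair. Krt6b was at 1353 CPM against 20.2 and 4.85 CPM, and Krt16, the partner of Krt6a, at 2072 against 67.4 and 196 CPM. The protease inhibitor gene Spink5 was at 925 CPM against 94.4 and 60.9 CPM, and Sprr1a, a cornified envelope precursor, at 2095 against 105 and 42.3 CPM. The cells past both cuts lay between for Krt6a (3001 CPM) and Sprr1a (1362 CPM). Of the 12 Psca-rich cells, 10 were in the class with Krt4 and Krt13 alone and 2 in that with both. Without them, an alternative chosen after the data were seen, Krt6b was at 406 CPM with Krt4 and Krt13 alone, below the 614 CPM of the cells with both (780 CPM with all cells). Krt6a was then at 4853 against 2592 CPM, Krt16 at 1557 against 873 CPM, Sprr1a at 1039 against 886 CPM and Spink5 at 645 against 551 CPM.

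For each gene list below, the share over all 11406 compared genes is 7.04% at least 2-fold higher and 12.5% lower. The keratin pair of the basal layer was higher in the anal canal cells than in either TZ cluster. At least 2-fold above the other named cells were 2 of the 3 basal keratins (median log2 ratio 1.15). Of the 6 epidermal differentiation keratins 4 were compared and all 4 were higher (median 3.52), as were both compared mucosal ones of 4 (median 7.93). Among these, Krt1, Krt10 and Krt4 are markers of the anal canal cells, so their direction is no separate result. Krt77 had 25 UMIs in the anal canal cells (5.71 CPM). Krt14 was at 11880 CPM, against 5400 CPM in Basal and 6877 CPM in Suprabasal cells, and its partner Krt5 at 3829 CPM against 2123 and 929 CPM. Krt15 was at 2493 CPM (2446 to 2540), below the 2878 CPM of the Basal and above the 439 CPM of the Suprabasal cells. After thinning, 97.5% of the anal canal cells had a UMI of Krt14 and 95.5% of Krt5.

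Of the 6 keratins of wounds, ducts and hyperproliferation, 4 were at least 2-fold higher in the anal canal cells and 2 lower (median 2.15). Krt6b was highest, with a log2 ratio of 4.86 (4.46 to 5.28), ahead of Krt75, Krt16 and Krt6a. Krt6a and Krt6b are near-identical in sequence, so reads could be split between them. Krt17, the keratin whose promoter drives the Cre of these mice, was lower (704 CPM against 2265 CPM in Basal and 9389 CPM in Suprabasal cells), as was Krt79 (49.5 against 392 and 6213 CPM). The reporter ZsGreen1 had 19 UMIs in the anal canal cells (4.34 CPM), against 4.81 CPM in Basal and 4.82 CPM in Suprabasal cells. Its log2 ratio over the other named cells was 0.04 (-0.91 to 0.97). After thinning, it was found in 1 anal canal, 2 Basal and 0 Suprabasal cells, too few to compare its level between clusters.

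Among 6 simple keratins, 3 were higher and 2 lower (median 0.38). Of the higher ones, Krt20 was at 86.5 CPM, against 98.0 CPM in the Rectum cells. Krt7 was at 397 CPM in the anal canal cells, above the 131 CPM of the Rectum cells, whereas Krt8 and Krt18, the pair of columnar cells, were at 25.3 and 17.6 CPM against 2741 and 575 CPM there. Krt19 was at 224 CPM, between the TZ clusters (at most 26.6 CPM) and the Rectum cells (2266 CPM).

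Of the 26 cornified envelope genes, 17 had enough UMIs to compare, with 8 at least 2-fold higher and 4 lower (median 0.91). The higher ones included Sprr1b (log2 ratio 7.43), Cnfn (6.20), the cross-linking enzymes Tgm1 (3.67) and Tgm3 (2.95), and Evpl (1.32). Tgm3 was at 66.4 CPM, against 58.2 CPM in the Rectum cells. The lower ones were Ivl, Sbsn, Cdsn and Calml3. Lor, the main protein of the epidermal envelope, was counted as higher but had 24 UMIs (5.48 CPM), against 14.2 CPM (10 UMIs) in Rectum cells. The filaggrin genes Flg and Flg2 had 1 and 0 UMIs. Krtdap, at 3797 CPM, and Sprr1a, at 468 CPM, were below the Suprabasal cells (8756 and 1749 CPM). Near-identical Sprr2a copies were counted as higher too, and their levels are uncertain. Sprr2a1 and Sprr2a3 were at 21.9 and 250 CPM, against 45.4 and 312 CPM in the Rectum cells.

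Of 13 genes of epidermal barrier lipids, 10 were compared, with 1 higher (Cers3, a ceramide synthase, 1.90) and 2 lower (Elovl4 and Pnpla1). The list's median was -0.31. Of 13 desmosomal genes, Dsc2 was higher (1.25) and Pkp2 lower, with 0 UMIs in the anal canal cells, where 3 UMIs would be 0.685 CPM, against 36.9 CPM in the Rectum cells. The other 11 were within 2-fold, and the median was 0.19 (0.16 with Pkp2 at its bound). Over all compared genes, 7.04% were at least 2-fold higher and 12.5% lower, and both of these short lists lay near these shares.

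Of 11 basement membrane adhesion genes, 4 were at least 2-fold higher and none lower, with a median log2 ratio of 0.91. The 4 were Col17a1 (1.51), Itga3 (1.38), Itgb4 (1.16) and Dst (1.01), which encode parts of hemidesmosomes and a laminin receptor. Itga3 was at 34.2 CPM and Itgb4 at 96.1 CPM, against 34.1 and 59.6 CPM in Rectum cells. Dst was at 144 CPM, against 125 CPM in Basal cells. Col17a1 was at 283 CPM against 176 CPM in Basal, 39.4 CPM in Suprabasal and 0 UMIs in Rectum cells. Cell cycle genes likewise had 3 of 15 higher (Mcm2, Mcm3 and Mcm6) and none lower (median 0.56), and Mki67 was at 63.7 CPM against 70.2 CPM in Basal and 23.7 CPM in Suprabasal cells.

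The list of kallikreins, proteases that loosen the cornified layer, and of serine protease inhibitors had members on both sides. Of all compared genes, 7.04% were at least 2-fold higher and 12.5% lower. Of 11 compared members of the list of kallikreins and serine protease inhibitors, 5 were lower (Klk7, Klk10, Klk13, Klk14 and Slpi) and 2 higher (Serpinb2 and Serpinb12), with a median of -0.48 (-0.77 with genes at 0 at their bound). Klk13 was at 22.4 CPM against 427 CPM in the Suprabasal and 2.22 CPM in the Basal cells, so it was below the Suprabasal cells alone. Klk10 was likewise at 63.0 CPM against 501 CPM in Suprabasal, 8.13 CPM in Basal and 5.68 CPM in Rectum cells. Klk7, at 0.456 CPM against 69.7 CPM in Suprabasal cells, was at 0.37 CPM in Basal cells, and in the Suprabasal cells Klk7 and Klk14 were each found in 4 of 183 thinned cells. Klk14 had 0 UMIs in the anal canal cells and 78.0 CPM in the Suprabasal cells. Slpi, a secreted inhibitor of leukocyte proteases, was at 11.6 CPM in the anal canal, 242 CPM in Basal and 3551 CPM in Suprabasal cells.

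Genes that encode position along the body and squamous identity were mostly within 2-fold or went both ways. The shares over all compared genes were 7.04% higher and 12.5% lower. Of 10 compared posterior Hox genes, Hoxa10, Hoxa11, Hoxd10 and Hoxd11 were higher, Hoxb9 and Hoxd9 lower and 4 within 2-fold (median 0.31). Hoxd13, a gene of the most caudal body, reached 15.5 CPM here, against 2.59 CPM in Basal, 0 UMIs in Suprabasal and 95.1 CPM in Rectum cells, and Hoxb13 at 43.4, 17.4, 2.63 and 547 CPM. Both lay between the TZ and the rectum in level. Of 15 squamous transcription factors, Sox2 (3.59), Grhl3 (1.78), Pitx1 (1.69) and Barx2 (1.54) were higher, none lower and 11 within 2-fold (median 0.39). Trp63, the master regulator of stratified epithelia, was at 200 CPM against 233 CPM in Basal and 104 CPM in Suprabasal cells.

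Secreted regulators of growth showed opposite directions within a family. Among IGF binding proteins, Igfbp7 (5.09), Igfbp3 (4.07) and Igfbp6 (3.88) were higher and Igfbp4 (-3.03) and Igfbp2 (-1.16) lower (median 2.35). Over all compared genes, 7.04% were at least 2-fold higher and 12.5% lower. Of 18 compared Wnt, Notch and Hedgehog genes, 8 were higher and 1, the Notch target Hey1, lower (median 0.74). The higher ones included the ligands Wnt7b (4.43), Wnt3 (4.32), Wnt4 (1.68) and Jag1 (1.16), of which Wnt4 had the highest level, 175 CPM against 58.8 CPM in Basal and 66.6 CPM in Suprabasal cells. In the family of glypicans and syndecans, Gpc3 was the sole member that was higher, and Gpc4 and Gpc6 were lower (median -0.73 over 7 genes, -0.78 with Gpc6 at its bound).

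Of 10 compared genes of innate defence, 6 were lower (Lcn2, Saa1, Saa3, Il18, Cxcl1 and Cxcl14) and 3 higher (S100a8, S100a9 and Il1rn), with a median of -2.37. The chemokine Cxcl14 was at 16.2 CPM against 238 CPM in Basal and 131 CPM in Suprabasal cells. All 14 immediate-early genes, which respond within minutes to growth factors and stress, were at least 2-fold lower (median -1.65), where 12.5% of all compared genes were. Their sum was 1877 CPM here, against 2210 CPM in Suprabasal, 2303 CPM in Rectum and 10038 CPM in Basal cells, so the distance was to the Basal cells. Fos was at 420, 298, 430 and 2154 CPM in that order.

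**Figure D4:**
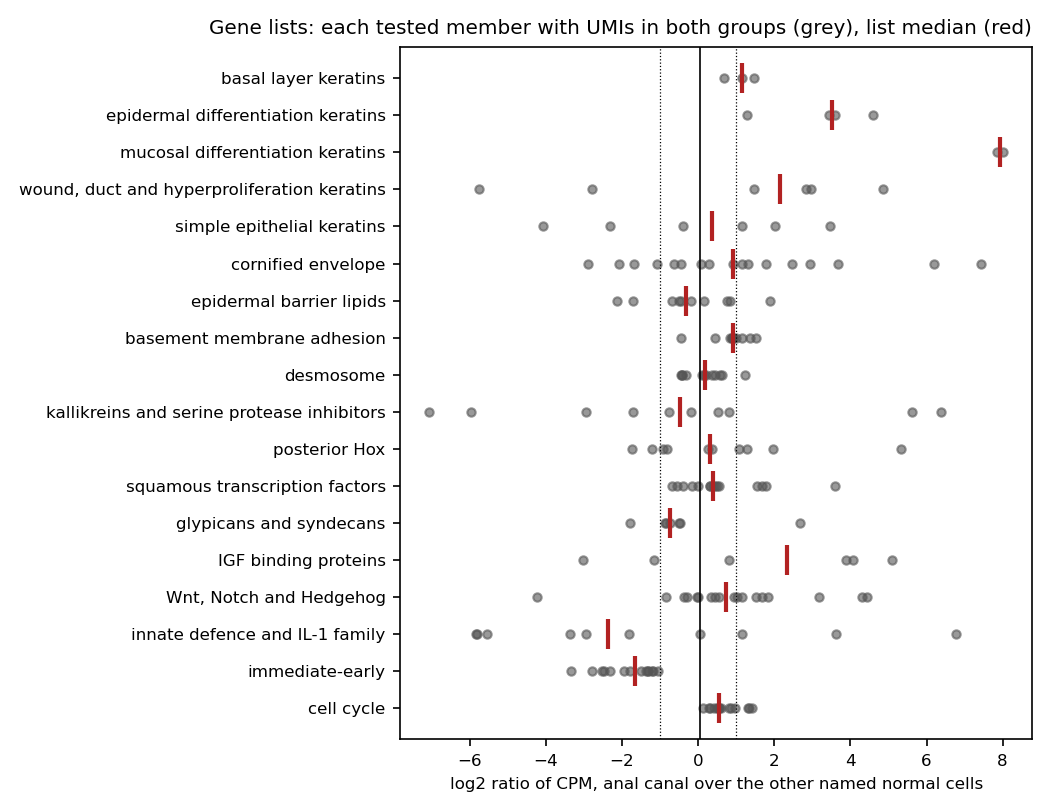
Each grey point is the log2 ratio of CPM, anal canal over the other named normal cells, of 1 compared gene of a list with UMIs in both groups, and the red bar is the median of the list. The solid line is the median of all compared genes (0.05) and the dotted lines mark 2-fold. The mucosal keratins Krt4, a marker of these cells, and Krt13 lie furthest to the right, and all immediate-early genes lie left of the 2-fold line.

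The 10 genes that stood furthest below both TZ clusters, among 2098 genes with at least 100 UMIs in each, were Dapk2, Egr2, Lcn2, Alox12e, Ramp1, Cnn3, Slpi, H2-Q7, Dnmt3l and Dact2. Lcn2, which binds bacterial siderophores, was at 13.0 CPM against 694 CPM in Basal and 700 CPM in Suprabasal cells, a log2 ratio over the lower of the 2 of -5.74 (-6.14 to -5.36). Dapk2, a death-associated kinase, was at 1.83 CPM against 104 and 145 CPM, and Alox12e, an epidermal lipoxygenase, at 3.196 against 161 and 486 CPM. H2-Q7 has close paralogs, and its level is uncertain.

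Ramp1 encodes a subunit of the receptor for calcitonin gene-related peptide, of which Calcb encodes a form. Calcb was at 420 CPM in the anal canal cells and at most at 5.70 CPM in the other clusters. Ramp1 was at 2.05 CPM in the anal canal cells and at 278, 99.5 and 322 CPM in Basal, Suprabasal and Rectum cells. The ligand gene was thus high in the cluster in which the receptor subunit was low.

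Markers of other cell types were low as sums. Against the other named cells pooled, 9 of the 10 rectum markers were at least 2-fold lower and Krt20 higher. The 10 summed to 158 CPM in the anal canal cells, against 12888 CPM in the Rectum cells, and Cdx1 had 0 UMIs. Krt20 gave 86.5 of the 158 CPM, and was at 98.0 CPM in Rectum, 18.5 CPM in Basal and 1.31 CPM in Suprabasal cells. Of the 6 fibroblast markers, 3 (Col1a1, Lum and Pdgfra) had 0 UMIs, and Dcn gave 94 of 103 UMIs. The 6 immune markers summed to 40 UMIs, with Cd74 giving 34, and Tyrobp, Cd3e and Cd207 at 0. The endothelial, smooth muscle and melanocyte markers summed to 35, 32 and 5 UMIs. Of 3 compared hair follicle and 8 compared anal gland or sebaceous markers, 3 and 6 were lower and none higher. Lhx2, Lgr5 and Tbx1 of the hair follicle had 4, 6 and 7 UMIs, and the sebaceous genes Plin2 and Scd1 were at 16.2 and 20.3 CPM against 755 and 804 CPM in the 610 cells without a name that passed the authors' filters.

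In those 610 cells the leading genes were also low. Krt4, Krt13, Ppbp and Psca were at 3.67, 4.18, 1.84 and 3.34 CPM, close to the other named clusters. Igfbp7 was an exception with 506 CPM, above the 329 CPM of the anal canal cells.

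Whether the cluster names of the 2 samples refer to the same cells was not tested. In the wounded library, which the choice of the anal canal cells did not use, 19 of the 20 leading genes had their highest level among the 6 named clusters in the cells named Basal, and 1, Ccer2, in Regeneration. Over all 4484 genes with at least 100 UMIs in the normal anal canal cells, 725 (16.2%) were highest there. Of the 71 genes over 4-fold above each other normal cluster, 67 (94.4%) were.

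Levels of the markers in the 573 wounded Basal cells were near those of the normal anal canal cells. Krt10 was at 1987 CPM there, Krt1 at 2473 CPM, Krt4 at 756 CPM and Gpc3 at 63.4 CPM, whereas Krt10 was at 366 CPM or less in the other 5 wounded clusters and Krt4 at 73.5 CPM or less. Of the 20 leading genes, 7 were at or above their normal anal canal CPM in wounded Basal cells, among them Psca (1315 CPM), Krt13 (1443 CPM), Mt4 (808 CPM), Ppbp (701 CPM) and Ltf (474 CPM). Sprr1b was at 9.41 CPM against 152 CPM in the normal anal canal cells, Calcb at 129 against 420 CPM and Serpinb2 at 30.5 against 147 CPM.

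Genes low in the normal anal canal cells were low in wounded Basal cells too. Of the 10, 9 were at under 10% of their level in wounded Suprabasal cells, as were 1.01% of 2075 genes with at least 100 UMIs in both normal TZ clusters. For 6 of the 10, wounded Basal cells had the lowest level of the 6 clusters, as for 12.2% of those genes. Lcn2 was at 54.0 CPM there, at 50.4 CPM in wounded Rectum cells and at 1172 and 1598 CPM in Wound_Stress and Regeneration cells, and Slpi at 13.9 CPM against 1229 CPM in wounded Suprabasal cells. Krt17 was at 381 CPM, against 704 CPM in the normal anal canal and 2265 CPM in normal Basal cells.

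The 4 keratin classes had similar shares in both. Of 564 thinned wounded Basal cells, 285 (50.5%, 46.3 to 54.7) reached neither cut, 127 (22.5%) the Krt1 and Krt10 cut alone, 84 (14.9%) the Krt4 and Krt13 cut alone and 68 (12.1%, 9.49 to 15.0) both. Among 184 thinned Hybrid cells, 18 (9.78%) reached both cuts, and in the other 4 wounded clusters at least 98.1% of the cells reached neither. The 2 libraries differ in condition, mice and Cell Ranger version, which cannot be told apart, and clusters were named separately in each.

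**Figure D5:**
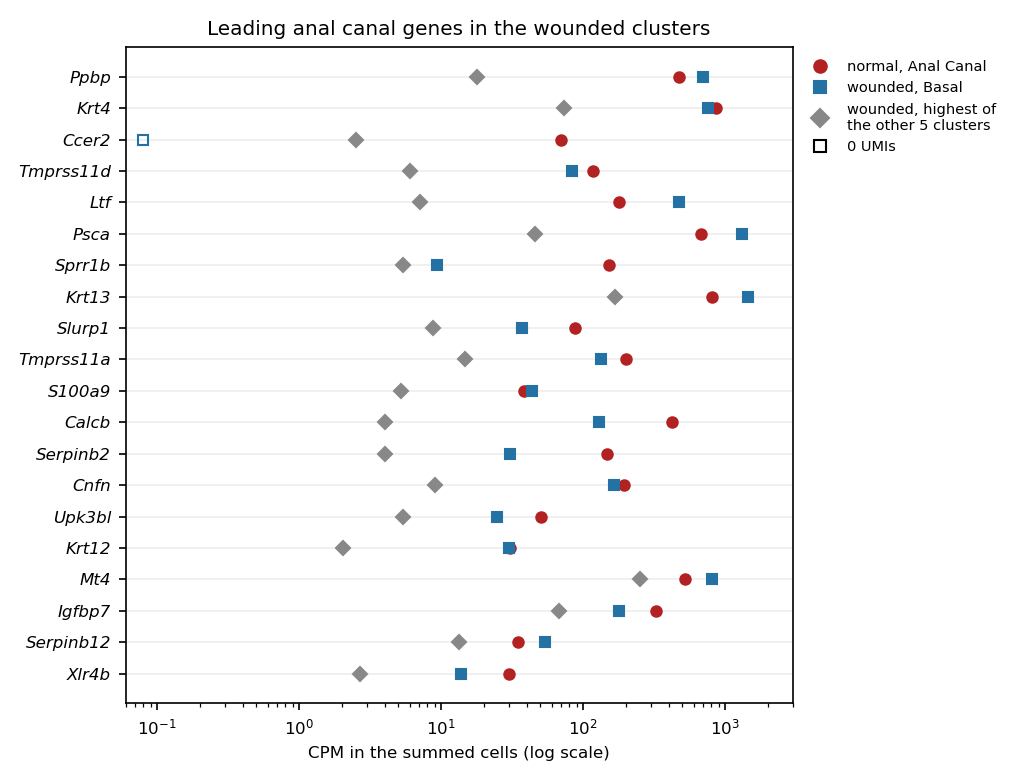
The points give the CPM (log scale) of the 20 leading genes in the normal anal canal cells, in the wounded cells named Basal and in the highest of the other 5 wounded clusters, with an open symbol for 0 UMIs. The wounded Basal points lie on either side of the normal anal canal points, from 9.41 CPM for Sprr1b to 1443 CPM for Krt13, and above the other wounded clusters for each gene but Ccer2, which had 0 UMIs in wounded Basal cells.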

How the data were processed

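The deposited UMI counts, 1 value for each gene in each barcode, were made by the authors with Cell Ranger on mm10 (version 3.1.0 in the header of the normal and 4.0.0 in that of the wounded sample) and not normalized. They also deposited a table of named cells with values on the natural log scale, of which only the barcodes and cluster names were used. The study states filters of over 200 and under 5000 genes and under 25% mitochondrial UMIs in Seurat 3.2.2.

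Counts were summed per cluster in Python 3.11.15 with numpy 2.4.6 and scipy 1.17.1, and the deposited names were kept, that of the wounded Basal cells included. Ratios are between sums, genes with under 20 UMIs over the named cells were not compared, and a group at 0 is set against 3 UMIs. The ratio was tested on simulated counts of anal canal over the other named cells (11406 genes): all 94 genes changed 2-fold and all 106 changed 4-fold kept their direction, the interval left out 0 for 76 and 106 of them, and the true value lay inside 96.0% of the intervals. The simulated sums were Poisson draws without spread between cells, as the intervals assume. This checks the calculation alone and does not cover genes that few cells carried. Doublets were discriminated in the authors' sort, and no doublet caller was run here. Cells were not clustered again. Alternatives changed the reference cells, the totals, the count minimum, the thinning depth, the class cut and the cells left out.

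Named genes are the 4 markers, the 20 with the largest ratio over the next cluster and at least 100 UMIs, the 10 furthest below both TZ clusters, the 10 with the largest variance over mean, the 8 most correlated with Krt10, Krt4 and Krt15, and members of lists. The members and lists were chosen with earlier results of these data known. Gene positions were read from GENCODE M21 (GRCm38). Il36a and Il36g were not matched by symbol. Not every gene of the Krt15 set is reported here. The Psca-rich cells, the 1-cell removals and the pairing of Calcb with Ramp1 were chosen after values were seen.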

Additional observations from a re-analysis of the deposited data

How the results depend on the processing

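No paired analysis was possible because each condition has 1 library and the result comes from no test. Of 63 values recomputed under an alternative, 32 stayed within 1.5 times for counts or within the interval otherwise, 31 moved, and none changed direction. Of these, 7 were added after seeing the data, the levels of Igkc and Ccer2 without 1 cell and of 5 genes without the Psca-rich cells. The log2 ratio of Krt10 moved to 4.94 against all other filtered barcodes and to 4.20 without the 5 cells with the most of its UMIs. That of Krt1 moved to 3.41 against the TZ alone, 4.53 against all other filtered barcodes, 3.42 without the 5% of cells with the most UMIs and 3.24 without the 5 cells, and that of Krt4 to 7.26 with the mean of per-cell CPM. Genes at least 2-fold higher numbered 399 with a minimum of 100 UMIs, 2283 with no minimum above 1 UMI and 0.5 added, and 491 without the 5 cells. Genes at least 2-fold lower numbered 593, 3938 and 2330 in these settings, and 2508 against all other filtered barcodes. The 5 cells were left out of the anal canal alone and were those with the most UMIs of the gene, so this setting is tilted towards lower ratios. Shares were higher at greater depth. Thinned to 4000 UMIs and not thinned, they were 44.9% and 55.6% for Krt10, 56.9% and 61.6% for Krt1, 50.4% and 56.3% for Krt4, and 23.2% and 36.1% for Gpc3. Cells past both keratin cuts numbered 60 with a cut at 2 UMIs and 17 with a cut at 5 UMIs, so this class depends on the cut.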
